A study of Mus musculus with 16 samples.

Results

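The change from non-tumour liver to tumour was compared between 2 mouse genotypes, MYC and MYC/REG3A. For each mouse the log2 value of a gene in non-tumour liver was subtracted from its value in the tumour of the same animal, and the 4 differences of the MYC/REG3A mice were set against the 4 of the MYC mice. The difference between those group means is called the interaction below: above 0, the tumour value relative to the animal's own non-tumour liver was higher in MYC/REG3A mice than in MYC mice. All 16 arrays of the series entered, and 23521 of the 41345 rows of values were named by exactly 1 gene symbol. These gave 22180 genes, of which 13555 exceeded the array median on at least 4 of 16 arrays and were tested. The other 8625 genes were not, and the fit to all 23521 rows is given beside each result it alters.

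Both genotypes carried a MYC transgene, which woodchuck hepatitis virus sequence drives in the liver, and both were on the C57BL/6J background. The MYC mice had the genotype MYC+/+, REG3A-/- and the MYC/REG3A mice MYC+/+, REG3A+/+, the latter obtained by crossing with REG3A transgenic animals. The promoter that drives REG3A is not given in the labels. Mice were killed at 18 months, each liver was dissected into a tumour and a non-tumour sample that were snap frozen, and total RNA of each was hybridised to 1 single-colour Affymetrix array. The 4 groups thus held 4 arrays each, from 4 mice per genotype, with no wild-type liver and no REG3A mouse without MYC among the samples.

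MYC is a transcription factor that raises ribosome production, nucleotide and polyamine synthesis and cell division, and liver tumours driven by it commonly lose the specialised enzymes of the hepatocyte. REG3A is a secreted C-type lectin of the regenerating-islet family, known from pancreas and gut and found in human liver cancer. Liver tumours also replace or remodel the fenestrated sinusoidal endothelium, the lining that in normal liver supplies the Wnt signals keeping hepatocytes near the central vein in their pericentral state.

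The deposited values were comparable between arrays, with array means of 5.434 to 5.465 and maxima of 13.55 to 13.68 on the log2 scale, and 0 pairs of arrays were identical. Albumin, the major secreted protein of hepatocytes, lay between 13.26 and 13.57 on every array, and transthyretin (Ttr) between 12.94 and 13.25. The mouse genes of the REG family cannot check the labels: all 7 with a row lay between 2.67 and 4.17 on all arrays and 0 of them passed the expression filter. No value analysed here measured the REG3A transgene itself.

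The tumour change had the same shape in both genotypes and was smaller in the MYC/REG3A mice. Across the 13555 genes, the mean change of the MYC/REG3A mice followed that of the MYC mice with a Pearson correlation of 0.872 and a slope of 0.649, a description across genes, which are not independent replicates. Noise in the MYC means by itself lowers such a slope. The standard deviation of the mean change over genes was 0.589 in MYC mice and 0.438 in MYC/REG3A mice. The 2 genotypes share no array. In 7625 genes (56.3%) the mean change had the same sign in both and was the smaller in MYC/REG3A mice, in 3373 (24.9%) it was the larger, and in 2557 (18.9%) the signs were opposite.

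The smaller change came from some of the animals. The standard deviation of the change over genes was 0.729, 0.682, 0.624 and 0.704 in MYC mice 1 to 4. Its values were 0.679, 0.336, 0.657 and 0.429 in MYC/REG3A mice 1 to 4. MYC/REG3A mice 1 and 3 thus lay within the range of the MYC mice, and mice 2 and 4 lay below every other animal. Regressed on the mean change of all 8 mice, the slopes were 1.19, 1.14, 1.04 and 1.26 in MYC mice and 1.19, 0.465, 1.13 and 0.588 in MYC/REG3A mice. The main counts, the leading genes and the list medians are therefore also given without these 2 animals. They were picked by the size of their change, so leaving them out is bound to bring the mean changes nearer those of the MYC mice. It also leaves 2 MYC/REG3A mice. Values without them describe how far a result depends on these animals and are not a test of it. Pairs of mice from different genotypes correlated in their change across genes at 0.441 to 0.771 (median 0.597, 16 pairs), a range that overlapped the pairs within MYC (0.565 to 0.734, 6 pairs) and within MYC/REG3A (0.470 to 0.667, 6 pairs).

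Of the 13555 genes, 1 differed between the genotypes in its tumour change at an adjusted p under 0.05 (0.00738%), with limma's moderated test and Benjamini-Hochberg adjustment. This gene was Trim43c, with a lower change in MYC/REG3A mice, and in the fit to all 23521 rows its adjusted p was 0.0689, so that 0 rows passed. Lpcat4 and Mme followed at adjusted p of 0.0851 and 0.0801. At an unadjusted p under 0.05 there were 756 genes (5.58%), close to the share that such a threshold passes when nothing differs, 394 with the higher change in MYC/REG3A mice (2.91%) and 362 with the lower (2.67%). The 8 changes fell into 2 ranges without overlap in 387 genes (2.86%), 188 higher (1.39%) and 199 lower (1.47%) in MYC/REG3A mice. This is the share that separates when nothing differs, as the exact permutation test of 70 splits gives such genes a p of 0.0286. A lack of overlap is therefore used below to describe genes and is no support for them. Without MYC/REG3A mice 2 and 4, the genes at an unadjusted p under 0.05 numbered 293 (2.16%), and 0 passed after adjustment. A lower count is to be looked for there, as 2 mice of that genotype remain and those left out had the smallest changes.

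The 756 genes were selected by the same tumour changes that are described here. Their number was close to that passed when nothing differs. Counts among them therefore describe the selected genes and are no evidence for a direction of the difference. Most of the 756 had a smaller change in the MYC/REG3A mice. In 524 of them (69.3%) the mean change had the same sign and was nearer 0 in MYC/REG3A mice, against 56.3% of all genes, in 21 (2.78%) it was larger, and in 211 (27.9%) it was opposite in sign. The mean levels of the genotypes lay further apart in tumours than in non-tumour liver in 540 of the 756 (71.4%), against 57.4% of all genes. Of the 13555 genes, 92 had an unadjusted p under 0.05 and an interaction of at least 1 in size on the log2 scale. The higher change was in MYC/REG3A mice in 71 of these 92, and in 9 of the 9 with a size of at least 2. Over all 13555 genes 6685 interactions lay above 0 and 6870 below 0. Large interactions were not counted apart from the p threshold.

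**Figure D1:**
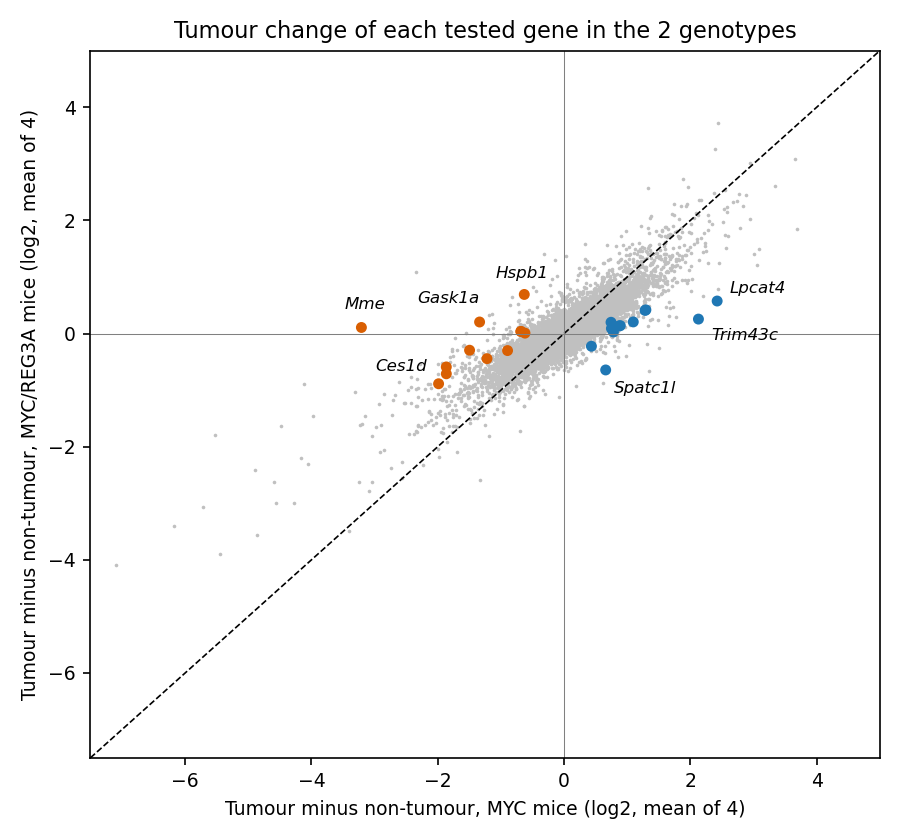
Mean tumour minus non-tumour log2 value of each of the 13555 tested genes (grey points) in the 4 MYC mice (horizontal) and the 4 MYC/REG3A mice (vertical). Coloured points are the 24 genes named by lowest p without overlap of the 8 mice, 12 with the higher change in MYC/REG3A mice in orange and 12 with the lower in blue, and the dashed line marks equal change. Most genes far from 0 lie between the dashed line and the horizontal line at 0, and the slope over all points is 0.649.

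Trim43c belongs to a small family of tripartite-motif genes known from the early embryo. In MYC mice it lay at 4.88, 4.67, 4.22 and 4.37 in non-tumour liver and at 6.78, 6.94, 6.05 and 6.87 in the tumours of the same animals. In MYC/REG3A mice it lay at 4.72, 4.75, 4.53 and 4.52 in non-tumour liver and at 5.33, 4.82, 4.81 and 4.59 in tumours. The 4 MYC tumours were the highest arrays of the series and the other 12 arrays lay together, with the tumour of MYC/REG3A mouse 1 the highest among them. Array medians were 4.90 to 4.97, and only the 4 MYC tumours and the tumour of MYC/REG3A mouse 1 exceeded theirs. Trim43c thus passed the expression filter through the MYC tumours, the group where it was high. On the remaining arrays it lay below the median. Trim43c rose by 2.13 in MYC mice (adjusted p = 0.000221), and the mean change in MYC/REG3A mice was 0.26 (adjusted p = 0.249). The interaction was -1.87 (SE 0.197, n = 4 mice per genotype, limma adjusted p = 0.0412), and it was -1.68 without MYC/REG3A mice 2 and 4 (adjusted p = 0.750). The level in tumours differed between genotypes by -1.78 (SE 0.201, adjusted p = 0.00273), and that in non-tumour liver by 0.10.

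The family members Trim43a and Trim43b stayed near the low end of the array, at 3.45 to 4.15 and 3.50 to 4.39, and did not pass the expression filter. The Trim43 genes are near-identical copies, so the assignment of the signal to Trim43c rather than to a relative is uncertain. In the fit to all rows their interactions were -0.41 (limma adjusted p = 0.915) for Trim43a and -0.02 (0.994) for Trim43b.

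Lpcat4 encodes a lysophospholipid acyltransferase that remodels membrane phospholipids. Its log2 values in MYC mice were 6.27, 5.08, 5.53 and 5.70 in non-tumour liver and 8.48, 7.72, 8.15 and 7.94 in tumours. In MYC/REG3A mice they were 5.44, 5.21, 5.33 and 5.57 in non-tumour liver and 6.65, 5.45, 6.02 and 5.74 in tumours. Every MYC tumour exceeded every MYC/REG3A tumour, while the non-tumour livers of the genotypes overlapped. Within mice the change was 2.20, 2.63, 2.62 and 2.24 in MYC animals and 1.21, 0.24, 0.69 and 0.16 in MYC/REG3A animals. Lpcat4 rose by 2.43 in MYC mice (adjusted p = 0.000221) and its mean change in MYC/REG3A mice was 0.58 (adjusted p = 0.0535). The interaction of -1.85 (SE 0.240, limma adjusted p = 0.0851) missed the threshold, passed it when each array was centred on its median (adjusted p = 0.0499) or when MYC/REG3A mouse 1 was left out (-2.06, adjusted p = 0.0298), and was -1.48 without MYC/REG3A mice 2 and 4. The genotypes differed in tumours by -2.11 (SE 0.257, adjusted p = 0.00344) and in non-tumour liver by -0.26. The related acyltransferases Lpcat1, Lpcat2 and Lpcat3 had interactions of 0.31, 0.09 and 0.15.

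Mme encodes neprilysin, a membrane metallopeptidase that cleaves peptides outside the cell. In MYC mice it lay at 10.41, 10.32, 9.42 and 8.58 in non-tumour liver and at 7.39, 6.80, 6.83 and 4.88 in tumours. In MYC/REG3A mice it lay at 8.29, 10.29, 10.24 and 9.01 in non-tumour liver and at 9.29, 9.77, 9.51 and 9.69 in tumours. The MYC tumours were the 4 lowest arrays, and the MYC/REG3A tumours lay inside the range of the non-tumour livers. Mme fell by 3.21 in MYC mice (adjusted p = 0.000403), while in MYC/REG3A mice the changes were 1.0, -0.53, -0.73 and 0.69, with a mean of 0.11 (adjusted p = 0.841). Its interaction of 3.32 (SE 0.408, limma adjusted p = 0.0801) did not pass in the fit as designed and passed when arrays were centred (adjusted p = 0.0499), quantile normalised again (0.0465) or weighted (0.0441). It was 3.34 without MYC/REG3A mice 2 and 4 (adjusted p = 0.750), where the 2 remaining animals had changes of 1.0 and -0.73. Its related peptidase Mmel1 had an interaction of 0.07.

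**Figure D2:**
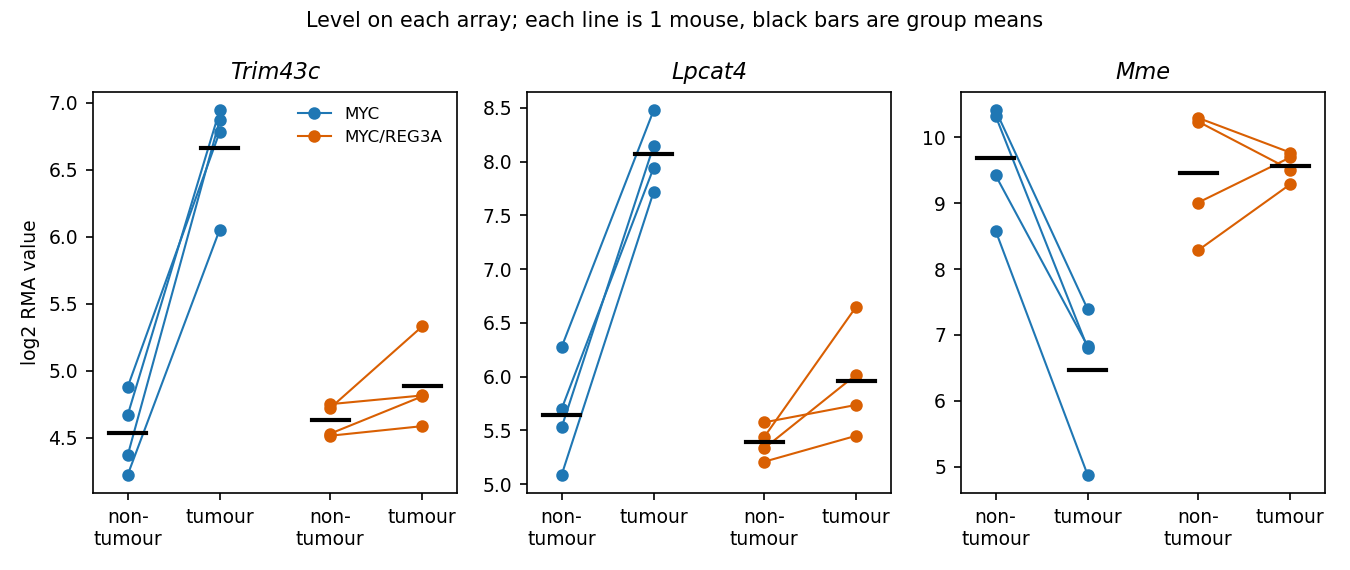
Log2 RMA value of Trim43c, Lpcat4 and Mme on each of the 16 arrays, with a line joining the non-tumour liver and tumour of 1 mouse, MYC mice in blue, MYC/REG3A mice in orange, and black bars at the group means of 4. Lines of the MYC mice climb for Trim43c and Lpcat4 and descend for Mme, with mean changes of 2.13, 2.43 and -3.21, and those of the MYC/REG3A mice are flatter, with 0.26, 0.58 and 0.11.

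After these, the genes of lowest p without overlap of the 8 mice were taken in each direction, and none of them passed the adjusted threshold. Gask1a, which encodes a Golgi-associated kinase-like protein, had an adjusted p of 0.614 and all others 0.873. Its levels in MYC mice were 7.02, 6.65, 7.53 and 7.30 in non-tumour liver and 5.39, 5.87, 5.76 and 6.12 in tumours. In MYC/REG3A mice they were 6.83, 6.63, 6.52 and 7.14 in non-tumour liver and 6.96, 7.38, 6.71 and 6.89 in tumours. All MYC tumours lay below the other 12 arrays, a pattern like that of Mme, and the interaction was 1.54 (SE 0.264), or 1.50 without MYC/REG3A mice 2 and 4. In MYC mice Gask1a fell by 1.34 (adjusted p = 0.00127). The mean change in MYC/REG3A mice was 0.20 (adjusted p = 0.502).

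The genes of this kind that were lower in tumours of MYC mice included enzymes, secreted factors and regulators. Ces1d, a carboxylesterase that hydrolyses triacylglycerol and drugs, had changes of -2.40, -1.12, -2.08 and -1.86 in MYC mice and of -0.73, -0.51, -0.62 and -0.49 in MYC/REG3A mice, an interaction of 1.27 (SE 0.247). Inhba, the subunit of activin A, fell by 1.99 in MYC mice and by 0.89 in MYC/REG3A mice, both past the threshold of their own tests (adjusted p = 0.000255 and 0.00988), and Tpbgl, a trophoblast glycoprotein relative, by 1.86 and 0.71 (adjusted p = 0.000403 and 0.0254). A threshold of 0.05 for the change within a genotype passed 4505 genes (33.2%) in MYC mice and 1690 (12.5%) in MYC/REG3A mice. The adaptor gene Gab1, which links growth factor receptors to their signalling, fell by 1.22 in MYC mice and 0.44 in MYC/REG3A mice, an interaction of 0.78. Rtn4, a shaper of the endoplasmic reticulum, Ccn1, a matrix-associated signalling protein, and Fam180a fell in MYC mice by 0.68, 0.68 and 1.50, with mean changes of 0.04, 0.04 and -0.29 in MYC/REG3A mice.

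For 6 of these 12 genes the mean levels of the genotypes were further apart in non-tumour liver than in tumours. Inhba differed by 0.52 in tumours and -0.58 in non-tumour liver, Tpbgl by 0.55 and -0.60, and Fam180a by 0.48 and -0.72. Hspb1, a small heat shock protein, lay at 8.58, 7.26, 8.92 and 7.74 in MYC non-tumour liver and at 6.43, 6.77, 7.07 and 7.29 in MYC/REG3A non-tumour liver. The tumour means differed by 0.09 and the non-tumour means by -1.23, so that the interaction of 1.32 (SE 0.303) lay in the non-tumour samples. Another row of the table for Hspb1 gave an interaction of 0.15. Enpp6, a choline-specific phosphodiesterase, differed by -0.01 in tumours and -0.61 in non-tumour liver, and Klf4, a transcription factor induced by stress and flow, by 0.19 and -0.43. Without MYC/REG3A mice 2 and 4 the interactions of the 12 genes ran from 0.55 for Ccn1 to 3.34 for Mme. They were 1.19 for Ces1d, 0.88 for Inhba, 0.79 for Tpbgl and 0.72 for Fam180a. None passed the adjusted threshold. The sign was fixed in advance, as genes chosen for a lack of overlap keep it whichever mice are left out.

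Genes with the lower change in MYC/REG3A mice included Zfp296, a zinc finger gene, which rose by 1.30 in MYC mice (adjusted p = 0.000428) and had a mean change of 0.42 in MYC/REG3A mice (adjusted p = 0.0524). Its levels were 6.89, 6.24, 6.68 and 6.17 in MYC tumours and 5.70, 5.55, 5.96 and 5.30 in MYC/REG3A tumours, without overlap, and the interaction was -0.88 (SE 0.174). Phykpl, an enzyme of hydroxylysine breakdown, rose by 1.28 in MYC mice (adjusted p = 0.000482) and had a mean change of 0.41 in MYC/REG3A mice, an interaction of -0.87. Rab27a, a GTPase of vesicle secretion, Asrgl1, an asparaginase-like enzyme, Fhit, a dinucleoside polyphosphate hydrolase, and Ippk, an inositol phosphate kinase, rose in MYC mice by 0.87, 1.10, 0.89 and 0.78. Their mean changes in MYC/REG3A mice were 0.14, 0.21, 0.14 and 0.03, none past the threshold. Gorasp1, a Golgi stacking protein, rose by 0.75 in MYC mice with a mean change of 0.09 in MYC/REG3A mice, and its genotypes differed by 0.50 in non-tumour liver against -0.16 in tumours, as those of Ippk did by 0.40 against -0.35. With MYC/REG3A mice 2 and 4 left out, the interactions of the 12 genes of this direction ran from -1.68 for Trim43c to -0.43 for Cd209a. That of Zfp296 was -0.67, and none passed the adjusted threshold. Here too the choice of genes without overlap fixed the sign in advance.

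For Spatc1l and Cd209a the rows of the table disagreed. Spatc1l had changes of 0.56, 0.74, 0.74 and 0.60 in MYC mice and -1.24, -0.55, 0.18 and -0.96 in MYC/REG3A mice, an interaction of -1.30, and another of its rows gave 0.36. Cd209a, a lectin of dendritic cells, had an interaction of -0.54 in the row used and 0.48 in another.

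**Figure D3:**
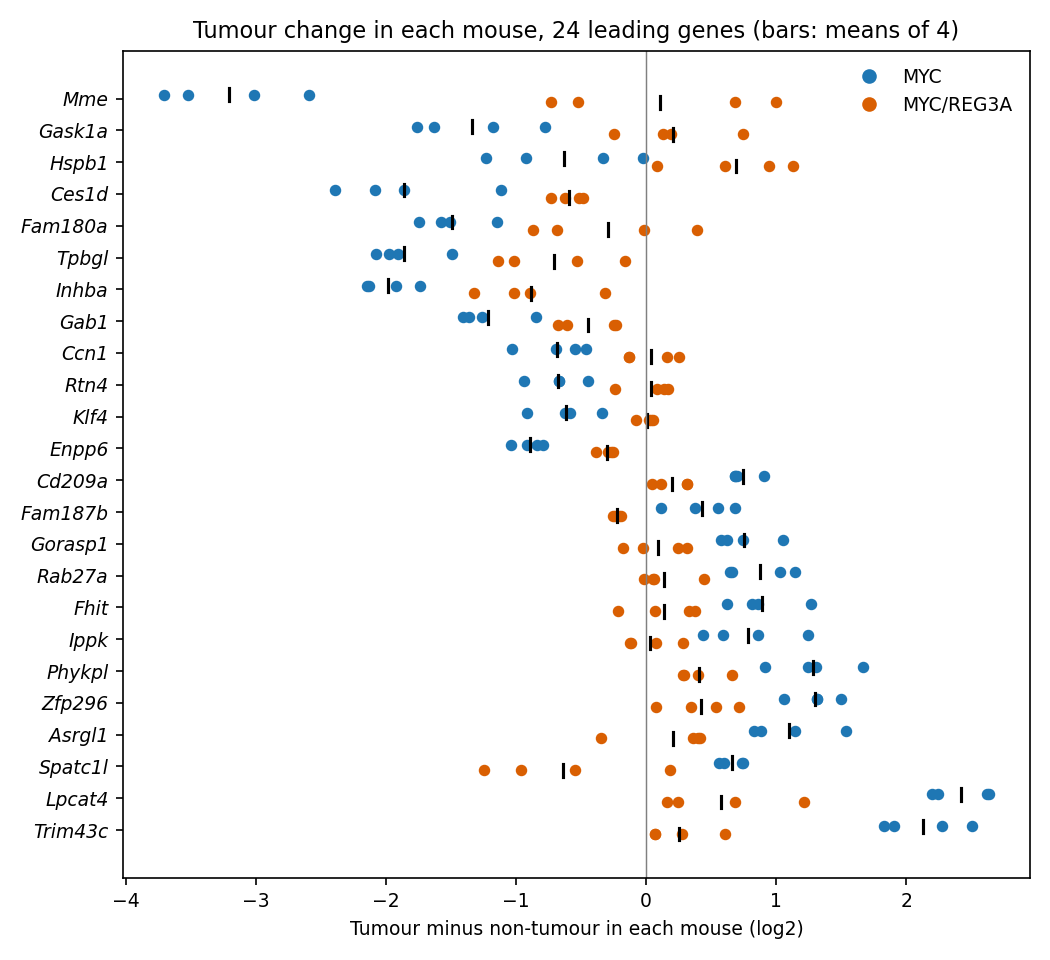
Tumour minus non-tumour log2 value in each mouse for the 24 leading genes, ordered by interaction, with MYC mice in blue, MYC/REG3A mice in orange and black bars at the means of 4. By the way the genes were chosen the colours do not overlap in any line; they are furthest apart for Mme (means of -3.21 and 0.11) and, at the other end, for Trim43c (2.13 and 0.26) and Lpcat4 (2.43 and 0.58).

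In 20 genes (0.148%) the tumour change had one sign in all 4 MYC mice and the other in all 4 MYC/REG3A mice, 14 of them below 0 in MYC mice. An unadjusted p under 0.05 was reached by 14 of the 20, none with an adjusted p under 0.873. Col6a3, a chain of collagen VI, had changes of -1.05, -0.16, -0.56 and -0.45 in MYC mice and 0.04, 0.39, 0.06 and 0.31 in MYC/REG3A mice, an interaction of 0.75 (SE 0.198). The genotypes differed by 0.11 in tumours and by -0.64 in non-tumour liver, as for Hspb1, which had this pattern too. Prg4, which encodes the secreted lubricant lubricin, had changes of 0.11, 0.20, 0.29 and 0.32 in MYC mice and -0.09, -0.14, -1.16 and -0.64 in MYC/REG3A mice, an interaction of -0.74. In Mmp23, Heph, Slc35a5 and Nanos1 the interaction was 0.54, 0.53, 0.49 and 0.40, and in Fam187b, Parp16 and Atp6v1e1 it was -0.66, -0.43 and -0.39. Among these named genes, Fam187b excepted, at least 1 mouse had a change of less than 0.1 in size.

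Genes were then described in lists by function and cell type, 40 of which held at least 5 tested genes. Trim43c was in none of them, and 0 list members passed the adjusted threshold. Counts below are therefore at an unadjusted p under 0.05. Those with all mice are read against the 5.58% of all genes, and those without MYC/REG3A mice 2 and 4 against 2.16%. The median interaction was -0.00 over all genes and ranged from -0.30 to 0.99 over lists, above 0 in 28 and below 0 in 12. In 29 of the 40 the median change was nearer 0, or past it, in MYC/REG3A mice. When MYC/REG3A mice 2 and 4 were left out, the medians ranged from -0.27 to 0.39, and in 13 of the 40 lists the median had the opposite sign.

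Growth genes of the kind that MYC drives formed 2 lists with a smaller median change in MYC/REG3A mice. Of 27 ribosome biogenesis genes, 26 had an interaction below 0, with a median of -0.30, and 2 reached an unadjusted p under 0.05. Their median change was 1.16, 1.05, 0.85 and 1.23 in MYC mice and 1.15, 0.56, 0.65 and 0.42 in MYC/REG3A mice, so that MYC/REG3A mouse 1 lay among the MYC animals. The 2 were RNA polymerase I subunits: Polr1b rose in both genotypes, by 1.43 and 0.86 (interaction -0.57), and Polr1a rose by 1.26 in MYC mice with a mean change of 0.57 in MYC/REG3A mice (interaction -0.69). After removal of MYC/REG3A mice 2 and 4, the list's median was -0.10. Of 26 oxidative phosphorylation genes 25 lay below 0, with a median of -0.22, or -0.04 without those mice, and 0 reached an unadjusted p under 0.05.

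Among 19 genes of the MYC network and its direct targets, 1 was higher and 3 lower, and the median was -0.11. With MYC/REG3A mice 2 and 4 left out, it was -0.09, with 0 higher and 0 lower. The lower ones were Cad, the first enzyme of pyrimidine synthesis (interaction -0.86, with changes of 1.64 and 0.78), Srm, spermidine synthase (-0.69), and Tert, the telomerase reverse transcriptase (-0.70). The higher one was Myc. The mouse Myc row fell by 0.59 in MYC mice (adjusted p = 0.00673), with changes of -0.83, -0.54, -0.43 and -0.57. In MYC/REG3A mice the changes were 0.11, 0.13, -0.43 and -0.38, and the interaction was 0.45 (limma adjusted p = 0.873). Both samples of MYC/REG3A mouse 2 were high, at 9.24 in non-tumour liver and 9.37 in tumour, against 6.84 to 7.97 on the other 14 arrays. Whether this row detects the transgene's transcript is not given in the sources used here.

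Cell division genes gave a median interaction that depended on the animals included. In the 33 cell cycle genes the median change was 0.90, 1.0, 1.28 and 1.69 in MYC mice and 2.13, 0.81, 1.06 and 1.16 in MYC/REG3A mice, 2 overlapping ranges with mouse 1 of the latter highest. The median interaction was 0.08, 24 of 33 lay above 0, and 1 reached an unadjusted p under 0.05, Ccne1, the cyclin of entry into DNA synthesis (-1.06). When MYC/REG3A mice 2 and 4 were left out, the median was 0.35, with 1 higher and 0 lower. Mki67, the proliferation antigen, rose by 1.46 in MYC mice and by 1.81 in MYC/REG3A mice, an interaction of 0.36 (SE 0.338). In the 17 p53 target genes the median was -0.14, or -0.04 without those mice, and 2 were lower, Phlda3 (-0.65) and Zmat3 (-0.86), against 1 without them. Cdkn1a, the cell cycle inhibitor p21, rose in both genotypes, by 2.51 and 1.96.

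The 3 highest medians belonged to lists of female-biased, pericentral and cytochrome P450 genes, mostly enzymes of the hepatocyte. In 25 genes known to be higher in livers of female mice, the median interaction was 0.99, with 6 higher and 0 lower at an unadjusted p under 0.05. The median change was -3.49, -2.73, -1.54 and -3.90 in MYC mice and -2.99, -0.52, -3.70 and -1.09 in MYC/REG3A mice, so mice 1 and 3 of the latter lay in the range of the MYC mice. Without mice 2 and 4 the median was -0.01, with 2 higher and 1 lower. The sulfotransferase gene Sult2a2 fell by 5.52 in MYC mice, with changes of -6.51, -3.06, -6.23 and -6.29, and in MYC/REG3A mice the changes were -3.66, -0.40, -1.71 and -1.39 (interaction 3.73, SE 0.846). Its relative Sult2a1 fell in both, by 4.89 and 2.42 (interaction 2.47). In MYC tumours Sult2a1 lay at 2.59, 6.03, 2.50 and 2.62, of which 3 were below the lower quartile of their array, as was 1 MYC tumour for Sult2a2 (3.66). At such values the size of the fall, and with it the interaction, is uncertain. Sult2a genes are similar in sequence, so their signals may not be independent. Acot3, an acyl-CoA thioesterase of peroxisomes, had an interaction of 1.73.

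Of 27 cytochrome P450 and other xenobiotic genes, 6 were higher and 1 lower, with a median of 0.60. After removal of MYC/REG3A mice 2 and 4, the median was 0.33, with 3 higher and 1 lower. Cyp4f14, a fatty acid and leukotriene hydroxylase, fell by 3.97 in MYC mice (-4.71, -2.73, -2.95 and -5.51) and had changes of -1.86, -0.44, -2.58 and -0.93 in MYC/REG3A mice, an interaction of 2.52 without overlap. Cyp2c29 had an interaction of 1.39 in the row used and of -0.01 in another row. Among 18 transcription factors of the hepatocyte 4 were higher and 0 lower, with a median of 0.15, and without those mice 1 was higher and 1 lower, with 0.12. The 4 were Foxa1, a pioneer factor (interaction 0.65), Onecut1, also called HNF6 (1.48), Nr2f2 (0.52), a nuclear receptor also found in endothelium, and Cebpb (0.59).

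Pericentral genes, which depend on Wnt signals, separated 1 animal from the rest. Of 23 tested, 22 had an interaction above 0 and 3 reached an unadjusted p under 0.05, with a median of 0.68. The median change was -0.89, -1.64, -0.94 and -1.83 in MYC mice and -1.41, -0.21, -0.88 and 0.69 in MYC/REG3A mice. In MYC/REG3A mouse 4 all 23 were higher in the tumour than in non-tumour liver, against at most 3 of 23 in any other animal. Glul, glutamine synthetase, had a change of 1.34 there. It was -2.77, -0.31 and -2.88 in the remaining animals of that genotype, and the 4 MYC mice had -1.59, -3.08, -1.19 and -1.78. The interaction of Glul was 0.75 with all mice and -0.92 without mice 2 and 4. The list's median was 0.26 without that mouse. Without mice 2 and 4 it was 0.01, with 1 higher and 2 lower. Notum, a secreted Wnt inhibitor that is itself a Wnt target, fell by 1.99 in MYC mice (-2.30, -2.33, -1.40 and -1.92) and had changes of -1.21, -0.31, -1.03 and 0.38 in MYC/REG3A mice. Its interaction was 1.44, or 0.87 without mice 2 and 4, and another row of Notum gave 0.07. Rgn, regucalcin, and Cyp2e1, an ethanol-oxidising cytochrome, had interactions of 1.05 and 0.62.

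**Figure D4:**
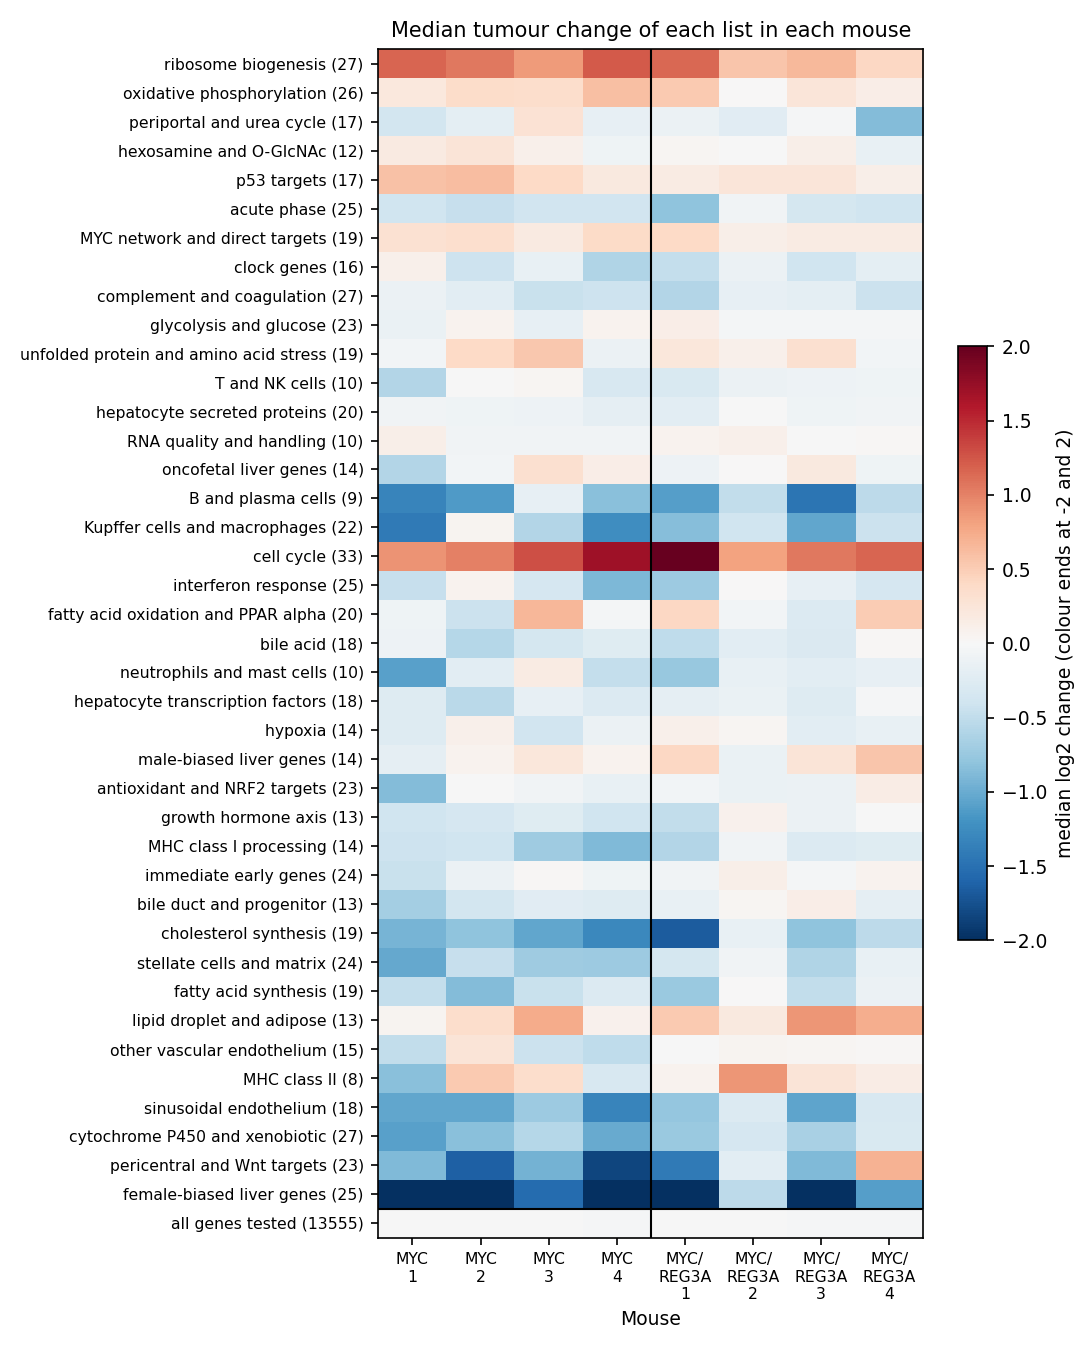
Median tumour minus non-tumour log2 value of the tested genes of each list (number in brackets) in each of the 8 mice, blue below 0 and red above, with lists ordered by median interaction and all 13555 genes in the bottom line. MYC/REG3A mice 2 and 4 are paler than the other 6 animals for female-biased, cytochrome P450, ribosome biogenesis and sinusoidal genes. They are not so in every list: for periportal genes mouse 4 has the largest change (-0.86). Mouse 4 is red for pericentral genes (0.69).

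Markers of the sinusoidal endothelium had the largest share of genes at an unadjusted p under 0.05 among the 40 lists. Of 18 tested, 18 had an interaction above 0, 8 were higher (44.4%, against 5.58% of all genes) and 0 lower, with a median of 0.50. The median difference between genotypes was 0.22 in tumours and -0.28 in non-tumour liver, so that both tissues entered the interaction. The median change was -1.03, -1.05, -0.72 and -1.31 in MYC mice and -0.77, -0.28, -1.06 and -0.32 in MYC/REG3A mice. With MYC/REG3A mice 2 and 4 left out, the median interaction was 0.18 and 1 gene reached an unadjusted p under 0.05, Flt4. These genes mark 1 cell type and are not independent of each other, and in bulk tissue fewer cells of a type and less RNA per cell cannot be told apart. The summed level of the list on the log2 scale ran from 12.59 to 13.30 in MYC non-tumour liver and from 11.80 to 12.01 in MYC tumours. It ran from 12.41 to 12.81 in MYC/REG3A non-tumour liver and from 11.59 to 12.52 in MYC/REG3A tumours.

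Flt4, the receptor for the lymphangiogenic factor VEGF-C, had another pattern than the rest of the list. It was higher in the tumour than in non-tumour liver in all 4 MYC/REG3A mice, by 1.42, 0.79, 1.65 and 1.79, where it rose by 1.41 on average (adjusted p = 0.0215). In MYC mice the changes were -0.72, 1.15, -0.73 and -0.97, with mouse 2 in the range of the other genotype. The interaction was 1.73 (SE 0.439, limma adjusted p = 0.873), and 1.85 without MYC/REG3A mice 2 and 4. The other members of the list mostly fell in both genotypes. Stab2, a scavenger receptor of these cells, fell by 1.15 and 0.59, Kdr, the VEGF receptor 2, by 1.01 and 0.49, and Tek, the angiopoietin receptor, by 1.17 and 0.62. Of the Wnt signals of this lining, Rspo3 fell by 2.06 and 1.15 (interaction 0.91), and Wnt2 fell by 0.61 in MYC mice with a mean change of -0.12 in MYC/REG3A mice (interaction 0.49), while Wnt9b had an interaction of 0.26.

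**Figure D5:**
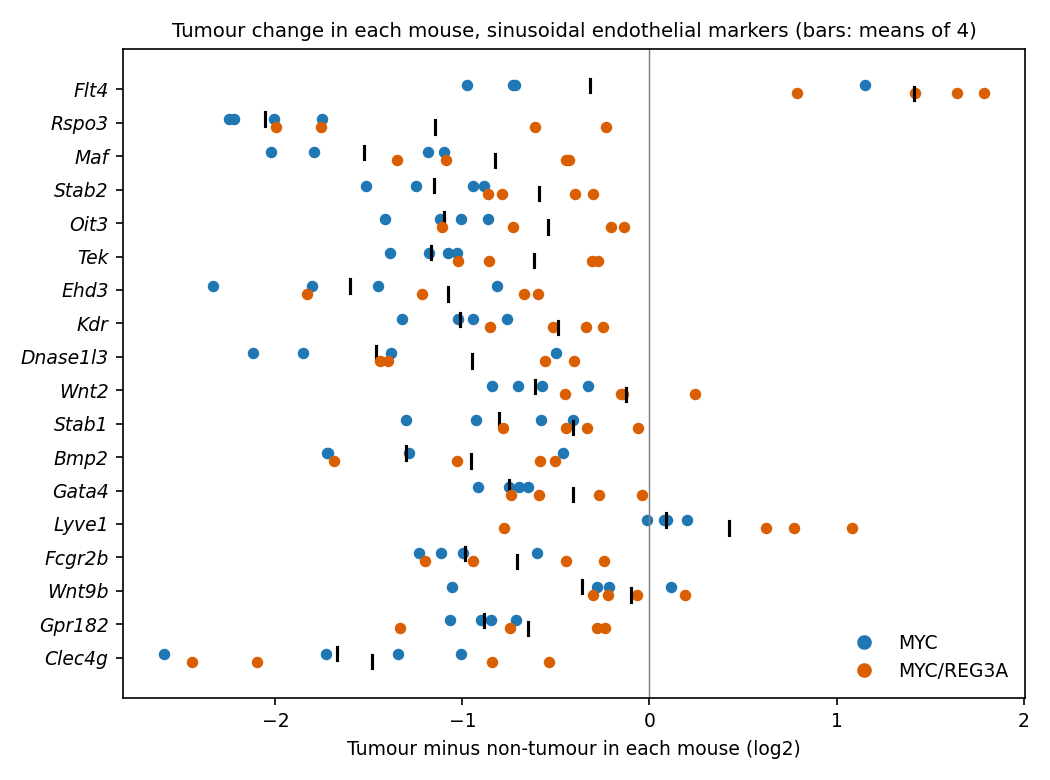
Tumour minus non-tumour log2 value in each mouse for the 18 tested markers of sinusoidal endothelium, ordered by interaction, with MYC mice in blue, MYC/REG3A mice in orange and black bars at the means of 4. All 18 means lie further right in MYC/REG3A mice, the colours overlap for 16 of the 18 genes, and Flt4 stands apart with means of -0.32 and 1.41.

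Other stromal and immune lists differed less. Of 24 stellate cell and matrix genes 5 were higher and 0 lower, with a median of 0.33. When MYC/REG3A mice 2 and 4 were left out, the median was 0.20, with 2 higher and 2 lower. The median difference between genotypes was -0.11 in tumours and -0.41 in non-tumour liver for this list, 0.04 and -0.39 for other vascular genes, and 0.03 and -0.44 for MHC class II genes. Hhip, a Hedgehog-binding inhibitor, fell in both genotypes, by 1.93 (-1.41, -1.95, -2.43 and -1.93) and 1.10 (-1.25, -0.92, -1.17 and -1.09), an interaction of 0.82 without overlap. Its level was below the lower quartile of the array in 3 MYC tumours and 1 MYC/REG3A tumour, so that the size of these values is uncertain. Gas1, a cell-surface protein that also binds Hedgehog, had an interaction of 0.52. Its level was higher in MYC/REG3A mice in both tissues. The difference was 0.87 in tumours (limma adjusted p = 0.00344) and 0.35 in non-tumour liver (0.904). Gas1 was 1 of the 3 genes (0.0221%) that differed between tumours of the genotypes, the others being Trim43c and Lpcat4. That comparison shares the tumour arrays with the interaction. The 15 other vascular genes had a median of 0.37, or 0.30 without MYC/REG3A mice 2 and 4, with Cldn5 (0.50) and Flt1 (0.37) higher and Esm1, an endothelial tip cell gene, lower (-1.20).

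In 22 Kupffer cell and macrophage genes the median was 0.07 and 1 was higher, Cd163, a haemoglobin scavenger receptor (0.51). After removal of MYC/REG3A mice 2 and 4, the median turned to -0.24, with 0 higher and 3 lower. Of 9 tested B and plasma cell genes and 10 T and NK cell genes, 0 reached an unadjusted p under 0.05, with medians of 0.06 and -0.00. Without those mice the B and plasma cell median was -0.27, the lowest of the 40 lists, with 1 lower, and that of T and NK cells was 0.01. All 8 tested MHC class II genes had an interaction above 0, with a median of 0.42, or 0.30 without those mice, and 0 at an unadjusted p under 0.05. Summed macrophage levels ran from 12.60 to 14.08 in MYC non-tumour liver, 12.44 to 12.94 in MYC tumours, 12.82 to 13.36 in MYC/REG3A non-tumour liver and 11.59 to 12.63 in MYC/REG3A tumours. The part of cell composition in the results for single genes was not tested.

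Immediate early genes, which respond to handling of tissue within minutes, had a median of 0.22, with 3 of 24 higher: Klf4, Klf2 (0.77) and Myc. With MYC/REG3A mice 2 and 4 left out, the median was 0.11, with 2 higher. With all mice, the list's median difference between genotypes was -0.04 in tumours and -0.31 in non-tumour liver. Klf2 differed by 0.23 in tumours and -0.54 in non-tumour liver, and Myc by 0.74 and 0.29. Fos and Egr3 had interactions of 0.23 and 0.21, with unadjusted p of 0.153 and 0.217 in limma. Clock genes, whose level follows the time of day, had a median of -0.09, or -0.17 without those mice, and their mean change in each mouse ran from -0.44 to 0.02 in MYC mice and from -0.41 to -0.09 in MYC/REG3A mice. With that change as a covariate the interaction of Trim43c was -1.95 (limma adjusted p = 0.00567). With each mouse's overall slope as the covariate instead, 0 genes passed (smallest limma adjusted p 0.384). The part of the time of day or of handling in these results was not tested.

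Genes of protein O-GlcNAc cycling gave interactions near 0 with all mice. The O-GlcNAc transferase Ogt and hydrolase Oga had interactions of 0.11 and 0.01, and Gfpt1, the first enzyme of the hexosamine pathway, of -0.01, each smaller than its SE (0.227, 0.185 and 0.322). Afp, the fetal albumin relative, had -0.05 (SE 0.244), with changes between -0.31 and 0.70 in MYC mice and between -0.13 and 0.47 in MYC/REG3A mice. Gpc3, an oncofetal proteoglycan, had -0.33 (SE 0.185, limma adjusted p = 0.873). The 14 tested oncofetal genes had a median of 0.05, and of 0.33 without MYC/REG3A mice 2 and 4, with 0 at an unadjusted p under 0.05 in either case. Xist, the RNA of the inactive X chromosome, lay between 11.41 and 12.15 on 15 arrays and at 9.23 in the tumour of MYC/REG3A mouse 1, whose change was -2.43, and the interaction of -0.47 was 0.17 without that mouse.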

How the data were processed

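RNA from tumour and non-tumour liver of 8 mice was measured on 16 single-colour Affymetrix arrays. Per the submitters' processing notes, the deposited log2 values came from RMA as run in version 1.4.1 of Affymetrix Expression Console. This method corrects background, quantile normalises and summarises probes, and compresses low values. Array number, not read depth, limits precision.

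Rows were named through the platform annotation (23521 with 1 symbol, 1814 with several, 16010 with none). Of the 23521, 23328 matched a RefSeq table for GRCm38.p6, which altered 0 symbols; no coordinates were used. For 1082 symbols with several rows, the row of highest mean was used. Genes above the array median on at least 4 arrays were fitted in limma 3.58.1 (R 4.3.3) with mouse as a fixed block, tissue, and tissue by genotype, by lmFit and eBayes (6 residual and 3.77 prior degrees of freedom), 2-sided, with Benjamini-Hochberg adjustment at 0.05. The script was checked on simulated data. Both arrays of a mouse come from 1 animal, by genotype and mouse number in the titles, which is the basis of the pairing; deviations of paired arrays from group means correlated at 0.0963 to 0.325. A fit of 4 group means gave genotype differences within tissue. The labels give separate mice, so p-values measure the spread between animals.

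Genes named were, per direction, up to 12 past the threshold and filled by lowest unadjusted p without overlap of the 8 changes, up to 6 of opposite sign, up to 3 of lowest p per list among those under 0.05, and Myc, the REG family, Afp, Gpc3, Glul, Ogt, Oga, Gfpt1 and Xist. Predicted gene models, small RNAs and olfactory or vomeronasal receptors were left out of the first 2 kinds. Trim43a, Trim43b, the Lpcat and Mmel1 relatives, Cebpb, Tert, Wnt2, Wnt9b, Rspo3, Tek, Mki67, Cdkn1a, Fos and Egr3 were added after their values were seen. So were Gas1's levels in tumours and non-tumour liver and the albumin and Ttr checks. The members of the lists, and the animals left out together, were chosen with earlier results of these data known. Alternatives changed the filter, the row per gene, the mouse block, the normalisation, array weights, moderation, the test, 2 covariates and the mice included.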

Additional observations from a re-analysis of the deposited data

Results flagged for a closer look

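In 3 of 64 sets of 4 mice, drawn from 32 named genes, 1 animal stood far from the others of its genotype; chance alone picks out about 1 in 20 such sets. Cd209a had a tumour change of 0.906 in MYC mouse 3, with the next animal at 0.699. Asrgl1 had a change of -0.346 in MYC/REG3A mouse 3, where the others lay between 0.357 and 0.411. Parp16 had a change of 0.486 in MYC mouse 4, with the other MYC mice between 0.00218 and 0.0372.

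The tumour change of Trim43c differed between the genotypes by the test of the difference itself, with an interaction of -1.87 (limma adjusted p = 0.0412). In the fit to all rows, which has no expression filter, its limma adjusted p was 0.0689. For the following genes every mouse of one genotype changed in one direction and every mouse of the other in the opposite direction, and none passed after adjustment (limma adjusted p = 0.873 for each). The interaction was 1.32 for Hspb1, 0.752 for Col6a3, 0.542 for Mmp23, 0.527 for Heph, 0.495 for Slc35a5 and 0.403 for Nanos1. It was -0.657 for Fam187b, -0.741 for Prg4, -0.431 for Parp16 and -0.393 for Atp6v1e1.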

How the results depend on the processing

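Of 499 values of the 24 leading genes under 21 alternatives, 481 kept direction and side of the threshold and 0 reversed. These counts are no measure of stability. Genes chosen for a lack of overlap cannot reverse in the permutation test or when mice are left out. Of the 24, only Trim43c passed the threshold in the main fit, so the others kept their side by not passing. Trim43c ranged from -1.99 to -1.65, Lpcat4 from -2.06 to -1.48 and Mme from 3.02 to 3.60, while Cd209a ran from -0.58 to -0.03, Spatc1l from -1.58 to -0.47, Hspb1 from 0.74 to 1.52 and Fam180a from 0.72 to 1.39. Trim43c kept its call in 8 of 20 alternatives that could be fitted (the stricter filter leaves it out) and in 1 of 8 with a mouse left out, without MYC/REG3A mouse 1. The count of genes past the adjusted threshold, 1 as reported, was 0 with all 23521 rows, with the stricter filter, without MYC/REG3A mice 2 and 4 and with each mouse's overall slope as a covariate. It was 0 in the exact permutation test of 70 splits, whose smallest p of 0.0286 cannot pass (smallest adjusted p 0.898). It was 3 with arrays centred or weighted and 2 with quantile normalisation, and 0 to 2 when 1 mouse was left out. With no replicate block, that is without pairing, it was 0, and 606 genes had an unadjusted p under 0.05. That second count, 756 as reported, was 1250 with all rows, 1275 with array weights, 293 without MYC/REG3A mice 2 and 4, 361 with the slope covariate and 387 in the permutation test. With 1 mouse left out it ran from 407, without MYC/REG3A mouse 4, to 1249, without MYC/REG3A mouse 1. With MYC/REG3A mouse 3 left out the 1 gene called was Pcp4l1, not Trim43c.

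Some values turned sign. Glul, 0.75 as reported, was -0.92 without MYC/REG3A mice 2 and 4, -0.72 with the slope covariate, and -0.078 (without MYC/REG3A mouse 4) to 1.33 when 1 mouse was left out. Gfpt1 was 0.0027 with array weights, 0.24 without those 2 mice, 0.11 with the slope covariate, and -0.20 to 0.28 without single mice. Oga was -0.021 with the mean of rows, -0.032 with array weights, -0.013 with the clock covariate, and -0.11 to 0.13 without single mice. Leaving out single mice gave -0.20 to 0.14 for Afp, -0.063 (without MYC mouse 3) to 0.25 for Ogt and -0.78 to 0.17 (without MYC/REG3A mouse 1) for Xist, -0.47 as reported. The cause was not tested, except that leaving out animals or adding rows alters the number of samples or of tests. List medians moved by more than the SD of the per-mouse medians, pooled over genotypes, in 16 of 800 values. That SD is wide: the female-biased median went from 0.99 to -0.01 and the pericentral median from 0.68 to 0.01 without MYC/REG3A mice 2 and 4.

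The limits are 4 mice per genotype, 1 tumour each, and values compressed near background. Probes shared by near-identical genes, and rows of 1 gene that disagree, leave some names uncertain.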

Other observations

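Lists with no gene at an unadjusted p under 0.05 included bile acid genes (18 tested, median interaction 0.11), glycolysis and glucose genes (23 tested, -0.02), periportal and urea cycle genes (17 tested, -0.20), cholesterol synthesis genes (19 tested, 0.28) and acute phase genes (25 tested, -0.13). Without MYC/REG3A mice 2 and 4 these medians were -0.05, 0.03, 0.09, -0.23 and -0.16. For cholesterol synthesis the median was -0.23 without MYC/REG3A mice 2 and 4, the opposite sign, with per-mouse median changes of -0.93, -0.80, -1.04 and -1.28 in MYC mice and -1.66, -0.14, -0.80 and -0.53 in MYC/REG3A mice. Of 14 MHC class I processing genes 1 was higher at an unadjusted p under 0.05, Psmb8, a subunit of the immunoproteasome (interaction 0.74), and the median was 0.21, or 0.14 without those mice. Of 25 interferon response genes 1 reached that level, with a median of 0.09, or -0.04 without those mice.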
